A study of Saccharomyces cerevisiae with 40 samples.

Results

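The promoters described here are those at which both Hap1 and Oaf1 had a listed binding event. Genes were chosen by the deposited values themselves: a gene entered when it had a log2 signal-to-noise ratio, log2(S/N), for Hap1 in at least 1 of 4 chemostat conditions and for Oaf1 in at least 1 of the 4, not necessarily the same one. This gave 226 genes of the 7125 named in the tables, 3.17% of all genes, which is 47.7% of the 474 genes listed for Hap1 and 50% of the 452 listed for Oaf1. Genes on both sides of a shared event were joined, so that the 226 genes lie on 155 promoters, 84 with 1 such gene and 71 between 2 of them. The reference annotation matched 215 of the 226 names, 211 of them as protein-coding genes; the other 11 are counted by name only.

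The data are ChIP-exo profiles of transcription factors (TFs) in Saccharomyces cerevisiae, 40 samples in all, of which 16 are of Hap1 and Oaf1. ChIP-exo trims the DNA that was cross-linked to a tagged TF with an exonuclease and so places a bound site within some base pairs. Each TF carried a C-terminal tandem affinity purification tag in its own strain of the uracil auxotroph CEN.PK 113-5D, with 2 biological replicates for each condition. N-lim cultures were limited by nitrogen with 6% (wt/vol) glucose and Et-lim cultures by 0.5% ethanol; Ox,Glu-lim cultures were limited by oxygen and glucose at 1% glucose by the labels (the study's methods give the same glucose as for Glu-lim, with Tween 80 and ergosterol), and Glu-lim cultures by 0.75% glucose. N-lim and Ox,Glu-lim gave fermentative growth, Et-lim and Glu-lim respiratory growth. The authors pooled the replicates, so a TF has a single value per gene in a condition, that of the highest event. No spread between replicates can be given, sequencing depth is unknown, and no difference below was tested. Where 4 values are given in a row, they stand for N-lim, then Et-lim, then Ox,Glu-lim, then Glu-lim. The 95% intervals given are exact binomial (Clopper-Pearson) for shares and from order statistics for medians; they cover counting over genes or events only.

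Hap1 is a zinc cluster activator that senses heme and thereby oxygen, and it is known for its control of respiratory, sterol, and oxygen-dependent genes. Oaf1 is a zinc cluster activator that is stimulated by oleate and is known for its control of peroxisomal β-oxidation, in part as a heterodimer with Pip2. Both proteins contact CGG triplets (CCG on the other strand), and the spacing and flanks of the triplets set which zinc cluster protein prefers a site. Ino2 and Ino4, which were profiled in the same study, form a basic helix-loop-helix dimer that activates phospholipid synthesis.

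The sequences below show the DNA between and around the Hap1 and Oaf1 events of 8 promoters, from 20 bp before the first to 20 bp after the last event of the conditions in which both TFs were listed. They were chosen because events of the TFs lay close together (IZH1/PKH1, YGR035C, OLE1/SDS23, ERG1, and ERG25) or because their values were far apart (CYT1, PUT1, and RGI2/VHR1). They are RefSeq sequence of the R64 assembly, which is strain S288C and not the CEN.PK strain that was profiled, on the coding strand of the first-named gene, 5′ to 3′, with every CGG or CCG in capitals. The windows are chrIV:1434495-1434543 (plus strand) for IZH1/PKH1, chrVII:557813-557872 (minus strand) for YGR035C, chrVII:397997-398091 (plus strand) for OLE1/SDS23, chrVII:848682-848827 (minus strand) for ERG1, chrVII:609915-610030 (plus strand) for ERG25, chrXV:446860-447015 (plus strand) for CYT1, chrXII:424209-424351 (plus strand) for PUT1, and chrIX:249089-249242 (minus strand) for RGI2/VHR1. All 8 lie upstream of the gene start.
IZH1/PKH1: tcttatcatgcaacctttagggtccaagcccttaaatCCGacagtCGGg
YGR035C: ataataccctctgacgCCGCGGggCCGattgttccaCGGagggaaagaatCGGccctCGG
OLE1/SDS23: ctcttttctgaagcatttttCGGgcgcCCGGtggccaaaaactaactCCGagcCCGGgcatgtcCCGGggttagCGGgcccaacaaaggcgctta
ERG1: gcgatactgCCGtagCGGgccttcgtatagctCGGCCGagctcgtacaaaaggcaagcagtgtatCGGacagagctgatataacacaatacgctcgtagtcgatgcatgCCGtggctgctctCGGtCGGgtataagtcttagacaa
ERG25: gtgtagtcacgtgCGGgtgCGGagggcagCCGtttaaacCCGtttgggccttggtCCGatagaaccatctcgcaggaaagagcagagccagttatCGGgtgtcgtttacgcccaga
CYT1: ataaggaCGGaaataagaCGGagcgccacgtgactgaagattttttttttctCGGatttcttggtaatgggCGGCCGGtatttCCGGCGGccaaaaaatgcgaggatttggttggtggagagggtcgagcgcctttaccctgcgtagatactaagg
PUT1: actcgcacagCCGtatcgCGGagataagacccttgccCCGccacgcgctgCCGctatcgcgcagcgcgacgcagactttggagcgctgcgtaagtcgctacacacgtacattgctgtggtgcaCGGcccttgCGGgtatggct
RGI2/VHR1: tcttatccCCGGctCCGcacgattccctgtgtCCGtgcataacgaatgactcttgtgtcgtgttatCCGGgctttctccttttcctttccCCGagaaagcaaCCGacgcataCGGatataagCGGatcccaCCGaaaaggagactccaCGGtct
The 49 bp of IZH1/PKH1 held 2 such triplets, the 60 bp of YGR035C 6, the 95 bp of OLE1/SDS23 9, and the 154 bp of RGI2/VHR1 12. The Hap1-type sequence CCGATA, searched on both strands, was found 2 times in the ERG25 window and 1 time in that of ERG1. A longer Hap1-type direct repeat of CCG was found 1 time each in the windows of OLE1/SDS23 and CYT1, and the Oaf1-type half-site CGGNNNTAA 2 times in that of RGI2/VHR1 and 1 time each in those of IZH1/PKH1, ERG1, ERG25, CYT1, and PUT1.

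Hap1 and Oaf1 were listed together in the same condition for 180 of the 226 genes (79.6%, 95% interval 73.8 to 84.7%), on 125 of the 155 promoters. For 116 genes this was 1 condition, for 37 genes 2, for 19 genes 3, and for 8 genes all 4. Glu-lim held 133 of these genes, Et-lim 81, Ox,Glu-lim 48, and N-lim 17. The conditions had the same order by the number of genes with Hap1, but not by that with Oaf1. Hap1 was listed for 31 of the 226 genes at N-lim, then 108, 106, and 213 in the other conditions, and Oaf1 for 94, 165, 91, and 140. As shares of all genes of a TF in a condition, the 226 genes made up 59.6%, 61%, 42.4%, and 52.6% for Hap1, and 57.3%, 57.7%, 54.8%, and 57.1% for Oaf1. The share was therefore near the same for Oaf1 in all conditions and lowest for Hap1 at Ox,Glu-lim. Genes with both TFs were also listed for each TF in more conditions: Hap1 was listed in all 4 conditions for 9.73% of the 226 genes and 4.84% of the 248 genes with Hap1 and not Oaf1, and Oaf1 in all 4 for 19% of the 226 genes and 8.85% of the 226 other genes with Oaf1 and not Hap1. These values come from the columns that chose the genes and are a description.

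The 8 genes with both TFs in all 4 conditions were ERG1, ERG11, FAS1, HOR7, NDE1, OLE1 with SDS23 on the other side of the same promoter, and PDR16. A further 19 genes had both in 3 conditions. The plot of the values of these 27 genes shows their 21 promoters.

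**Figure D1:**
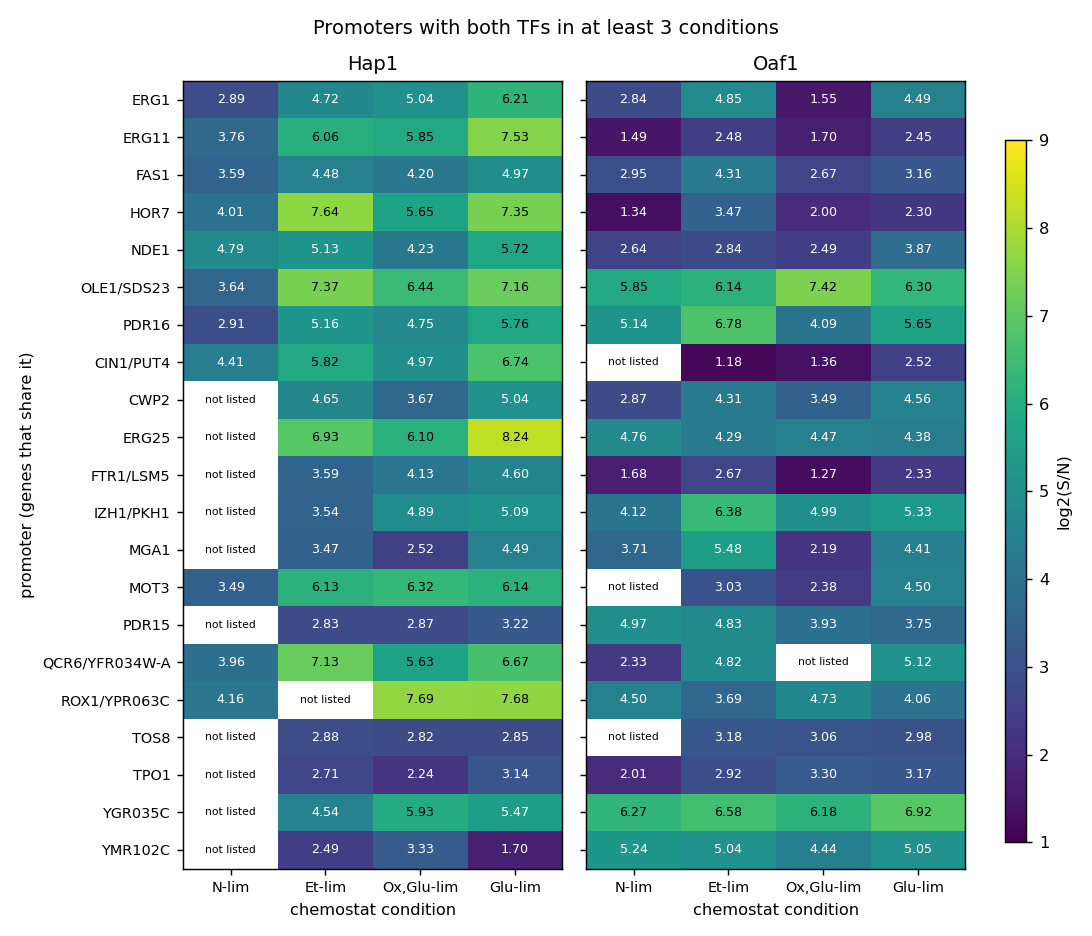
Log2(S/N) of Hap1 (left) and Oaf1 (right) at the 21 promoters with both TFs in at least 3 of the 4 chemostat conditions; each cell is 1 pooled value of the highest event, and white cells had no listed event. Hap1 was not listed at N-lim for 10 of the promoters, and all listed values of ERG25 and YGR035C lie above 4 for both TFs.

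Among sterol genes, 5 of the 27 ergosterol genes listed were bound by both TFs (18.5%, against 3.17% of all genes); Hap1 had 19 of the 27 and Oaf1 6. At ERG1, squalene epoxidase, Hap1 had log2(S/N) values of 2.89, 4.72, 5.04, and 6.21, and Oaf1 had 2.84, 4.85, 1.55, and 4.49. The TFs were close in value at N-lim and Et-lim and farthest apart at Ox,Glu-lim. At ERG25, the C-4 methyl sterol oxidase, Hap1 was not listed at N-lim and had 6.93, 6.10, and 8.24 under the other conditions, while Oaf1 had 4.76, 4.29, 4.47, and 4.38 and so varied little. At ERG11, lanosterol demethylase, Hap1 had 3.76, 6.06, 5.85, and 7.53 and Oaf1 had 1.49, 2.48, 1.70, and 2.45, lower than Hap1 in each condition. ERG3, sterol desaturase, had both TFs at Et-lim (Hap1 3.68, Oaf1 2.70) and Glu-lim (Hap1 4.54, Oaf1 3.50). The fifth gene, ARE2, a sterol acyltransferase, had both at Ox,Glu-lim only, with 4.23 for Hap1 and 1.09 for Oaf1.

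In fatty acid synthesis, 4 of 14 genes had both TFs, 28.6%, with 6 listed for Hap1 and 7 for Oaf1. The promoter of OLE1, the fatty acid desaturase, and SDS23 had the highest smaller value of the 155 promoters, where the smaller value is the lower of the mean log2(S/N) of Hap1 and that of Oaf1. Hap1 had 3.64, 7.37, 6.44, and 7.16 there and Oaf1 5.85, 6.14, 7.42, and 6.30, from N-lim to Glu-lim; Oaf1 was thus the higher at N-lim and Ox,Glu-lim and Hap1 at Et-lim and Glu-lim. At FAS1, a fatty acid synthase subunit, Hap1 had 3.59, 4.48, 4.20, and 4.97 and Oaf1 2.95, 4.31, 2.67, and 3.16, the higher being Hap1 in every condition. ACC1, acetyl-CoA carboxylase, shares its promoter with TIM23 of the mitochondrial import machinery and had both TFs at Glu-lim, with 4.49 for Hap1 and 1.22 for Oaf1. ACS2, an acetyl-CoA synthetase, had 2.14 for Hap1 and 2.94 for Oaf1 at Ox,Glu-lim.

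Of 21 genes of fatty acid activation and β-oxidation, 13 were listed for Oaf1, 3 for Hap1, and the same 3 for both (14.3%). These were the acyl-CoA synthetase genes FAA1 and FAA4, which activate fatty acids, and MDH3, the peroxisomal malate dehydrogenase. FAA1 had 5.30, 4.29, and 5.85 for Hap1 from Et-lim on, and 3.72 for Oaf1 at Et-lim alone. MDH3 had the opposite make-up: Hap1 was listed at Glu-lim alone with 1.42, and Oaf1 in all conditions with 4.68, 2.91, 4.78, and 4.07. Of 29 phospholipid genes, PDR16, a phosphatidylinositol transfer protein, was the 1 with both TFs (3.45%, close to the 3.17% of all genes); Hap1 had 2.91, 5.16, 4.75, and 5.76 and Oaf1 5.14, 6.78, 4.09, and 5.65 there. Of 24 sphingolipid genes, 4 had both TFs (16.7%): IPT1, SUR1, SCS7, and YPC1. IPT1, the inositolphosphotransferase of complex sphingolipids, had 2.50 for Hap1 and 4.60 for Oaf1 at Et-lim and 3.47 for Hap1 and 4.90 for Oaf1 at Glu-lim. At SUR1, which acts in the step before it, the Glu-lim values were 1.04 for Hap1, just above the threshold, and 4.85 for Oaf1.

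Respiratory genes differed in how the TFs were shared out. Of 33 listed, 20 had Hap1 and 5 had Oaf1, and all 5 of those with Oaf1 also had Hap1 (15.2%): CYC3, CYT1, COR1, QCR6, and NDE1. At QCR6, a subunit of the ubiquinol-cytochrome c reductase, Hap1 had 3.96, 7.13, 5.63, and 6.67, and Oaf1 had 2.33 at N-lim, 4.82 at Et-lim, and 5.12 at Glu-lim. At NDE1, the external NADH dehydrogenase, Hap1 had 4.79, 5.13, 4.23, and 5.72 and Oaf1 2.64, 2.84, 2.49, and 3.87. CYT1, the cytochrome subunit of the same reductase as QCR6, had the largest excess of Hap1 over Oaf1 among promoters with both in at least 2 conditions, 4.92 log2 units on average, from 6.65 for Hap1 and 1.52 for Oaf1 at Et-lim and 7.62 for Hap1 and 2.91 for Oaf1 at Glu-lim. The promoter between ANP1, a subunit of a mannosyltransferase complex, and HYP2, a translation factor, followed with 4.87, and then that of CIN1 and PUT4 with 4.16, HOR7 with 3.89, and ERG11 with 3.77. At CYC3, the heme lyase for cytochrome c, Hap1 had 2.29 at Et-lim and 3.03 at Ox,Glu-lim, while Oaf1 had 3.56 and 3.29, so the higher values were those of Oaf1 where both were listed.

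Genes of the response to heme and oxygen gave 6 of 33 with both TFs (18.2%): ROX1, MOT3, HAP1, HYP2, AAC1, and OLE1. At ROX1, the repressor of hypoxic genes, Hap1 was not listed at Et-lim and had 4.16 at N-lim, with 7.69 and 7.68 under the glucose-limited conditions, and Oaf1 had 4.50, 3.69, 4.73, and 4.06 from N-lim to Glu-lim. MOT3, a repressor that acts with Rox1, had 3.49, 6.13, 6.32, and 6.14 for Hap1, and 3.03, 2.38, and 4.50 for Oaf1 from Et-lim on. The promoter of HAP1 itself had Hap1 at Et-lim (3.76) and Glu-lim (4.32) and Oaf1 at Glu-lim (2.29). Of 44 genes of TFs in carbon, lipid, and stress control, 11 had both TFs (25%): ADR1, HAP1, HAP4, ROX1, MSN2, GIS1, USV1, XBP1, YAP1, SOK2, and VHR1; 18 of the 44 were listed for Hap1 and 15 for Oaf1. HAP4, the activator subunit of the Hap complex, had 6.41 for Hap1 and 3.85 for Oaf1 at Glu-lim. The promoter of VHR1, a regulator of biotin genes, and RGI2, a gene induced in respiratory growth, had Hap1 at Ox,Glu-lim with 3.96 and also at Glu-lim with 5.53, and Oaf1 in all conditions, with 7.66, 6.79, 6.65, and 7.32.

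Among the same promoters, with both TFs in at least 2 conditions, the largest excess of Oaf1 over Hap1 was on that of PUT1, proline oxidase, and SLS1, with a mean difference of Hap1 minus Oaf1 of -3.58: Hap1 had 2.63 and Oaf1 5.27 at Et-lim, and Hap1 had 1.58 and Oaf1 6.11 at Glu-lim. In this set it was followed by RRP42, an exosome subunit (-2.96), YMR102C (-2.34), RGI2/VHR1 (-2.24), and IPT1/SNF11 (-1.77). Promoters with both TFs in 1 condition reached differences as large, with -3.83 on VHS1 and -3.81 on SUR1. Proline genes recurred: of 18 genes of glutamate, glutamine, and proline use, 4 had both TFs (22.2%), and these were PUT1, PUT2, the next enzyme of proline breakdown, PUT4, the proline permease, and GAT1, an activator of nitrogen genes. PUT4 had the opposite order to PUT1, with 6.74 for Hap1 and 2.52 for Oaf1 at Glu-lim, and PUT2 had low values for both at Ox,Glu-lim, 1.32 for Hap1 and 1.87 for Oaf1. Of 15 multidrug and sterol transporter genes, 5 had both TFs (33.3%): PDR5, PDR15, SNQ2, TPO1, and RSB1. All 5 genes of this list with Oaf1 also had Hap1. PDR15, an ABC transporter, had 2.83, 2.87, and 3.22 for Hap1 from Et-lim on, and 4.97, 4.83, 3.93, and 3.75 for Oaf1. TPO1, a polyamine exporter, had 2.71, 2.24, and 3.14 for Hap1 from Et-lim on, and 2.01, 2.92, 3.30, and 3.17 for Oaf1.

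Other lists gave 4 of 20 genes of alcohol, aldehyde, and acetate metabolism (20%), 6 of 34 cell wall genes (17.6%), 5 of 37 stress genes (13.5%), 2 of 23 glyoxylate, citrate, and gluconeogenic genes (8.7%), and 1 of 23 hexose transport and sensing genes (4.35%). ALD6, the cytosolic acetaldehyde dehydrogenase, had 3.59 for Hap1 and 4.18 for Oaf1 at Glu-lim, and ADH1, alcohol dehydrogenase, 1.86 for Hap1 and 3.35 for Oaf1. PYC1, pyruvate carboxylase, had 2.03 for Hap1 and 2.39 for Oaf1 at Et-lim. CWP2, a cell wall mannoprotein, had 4.65, 3.67, and 5.04 for Hap1 from Et-lim on and 2.87, 4.31, 3.49, and 4.56 for Oaf1. SED1, another cell wall protein, had 3.86 for Hap1 and 4.15 for Oaf1 at Glu-lim. At HOR7, a gene induced by osmotic stress, Hap1 had 4.01, 7.64, 5.65, and 7.35, and Oaf1 lay between 1.34 (N-lim) and 3.47 (Et-lim). HSP12 and HSP26, encoding small heat shock proteins, had 2.07 and 2.52 for Hap1 and 2.91 and 2.02 for Oaf1 at Glu-lim. The lowest values of the set were 1.01 for Oaf1 at Ox,Glu-lim on the promoter of GNP1, an amino acid permease, and SMT3, which encodes SUMO, and 1.02 for Hap1 at Glu-lim on HXK2, the hexokinase; events at or under 1 are not listed, so nothing just outside the threshold can be shown.

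Over all genes, Hap1 events were higher on the promoters with both TFs than on those with Hap1 and not Oaf1. The median log2(S/N) of Hap1 was 3.76 against 3.27 at N-lim, 3.63 against 3.17 at Et-lim, 3.71 against 2.82 at Ox,Glu-lim, and 2.71 against 2.18 at Glu-lim. At Ox,Glu-lim the interval of the median was 3.24 to 3.96 on the 106 genes with both TFs. On the 144 with Hap1 and not Oaf1 it was 2.51 to 2.98, and in the other conditions the intervals overlapped. Genes on 1 promoter can share an event: the 106 genes hold 75 distinct Hap1 events and the 144 hold 110. The intervals count genes, so whether they overlap is not a test. For Oaf1 the medians were 2.64 with both TFs against 2.60 with Oaf1 and not Hap1 at N-lim, 2.85 against 2.37 at Et-lim, and 3.04 against 2.58 at Glu-lim, and the order turned at Ox,Glu-lim, with 2.54 against 2.96. Values above 5 were found for 18.3% of the genes with both TFs and 7.81% of those with Hap1 and not Oaf1 at Glu-lim. The log2(S/N) columns chose the genes, so these medians describe the sets and were not tested.

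**Figure D2:**
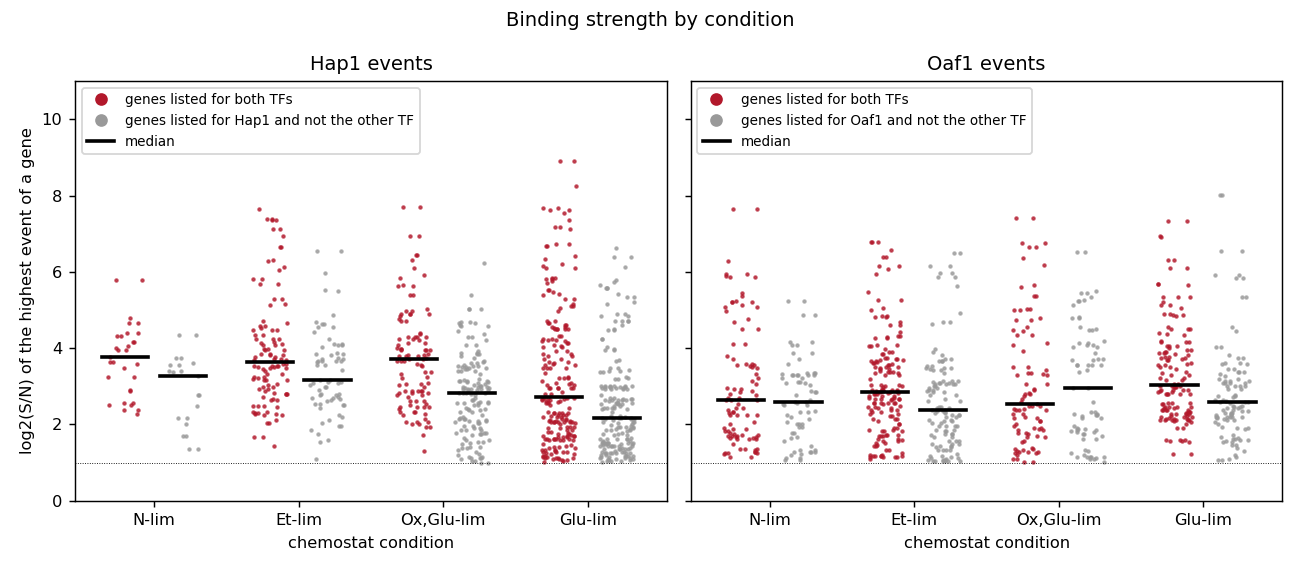
Log2(S/N) of the highest event of each gene by chemostat condition, for Hap1 (left) and Oaf1 (right), on genes listed for both TFs (red, left of each pair) and for the named TF and not the other (grey); each point is 1 gene and bars are medians. The red medians lie above the grey ones in all conditions for Hap1, and in all but Ox,Glu-lim for Oaf1.

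Compared on the same promoter, most events of both TFs were higher at Glu-lim than elsewhere. Hap1 at Et-lim minus Hap1 at Glu-lim had a median of -0.43 over 71 event pairs (interval -0.71 to -0.05), with 23 higher at Et-lim and 48 at Glu-lim. Hap1 at Ox,Glu-lim minus Glu-lim had a median of -0.54 over 70 pairs (-0.90 to -0.03). Hap1 at N-lim was below Hap1 at Glu-lim on 17 of 17 pairs, with a median difference of -2.85. Oaf1 at Et-lim minus Glu-lim had a median of -0.32 over 69 pairs (-0.49 to -0.09), at Ox,Glu-lim minus Glu-lim -0.60 over 43 pairs, and at N-lim minus Glu-lim -0.71 over 49 pairs. Oaf1 at N-lim and Ox,Glu-lim was near equal, with a median difference of 0.11 (-0.24 to 0.41) over 46 pairs. Each library was scaled by the authors to its own noise, and these differences leave out promoters that fell below the threshold in 1 of the conditions.

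Among event pairs in which both TFs were listed, the correlations between their values were low. These pairs were chosen by the same values, and promoters with either TF below the threshold are left out. The correlations therefore describe the listed pairs and cannot show how the strengths of the TFs are related in general. Across distinct event pairs of a condition, which share libraries and are not independent, Pearson's r between Hap1 and Oaf1 was 0.13 over 12 pairs at N-lim, 0.06 over 56 at Et-lim, 0.29 over 38 at Ox,Glu-lim, and 0.18 over 92 at Glu-lim, and Spearman's rho was 0.12, 0.02, 0.17, and 0.17. Hap1 was the higher on 66.7%, 64.3%, and 60.5% of the pairs from N-lim to Ox,Glu-lim, and on 43.5% at Glu-lim. On 43 promoters both TFs were listed in at least 2 common conditions, and on 17 of these (39.5%) the highest Hap1 and the highest Oaf1 value fell in the same condition. Unrelated values would also fall together on a part of the promoters. That part was not worked out, so the share shows neither agreement nor disagreement.

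The distance between the Hap1 and the Oaf1 event of a promoter had a median of 64 bp over 198 event pairs, each distinct pair of a condition being counted once. By condition it was 98.5 bp over 12 pairs at N-lim, 61.5 bp over 56 at Et-lim, 37 bp over 38 at Ox,Glu-lim, and 71.5 bp over 92 at Glu-lim. Of the 198 pairs, 47 (23.7%, interval 18 to 30.3%) were within 20 bp, 124 (62.6%) within 100 bp, and 182 (91.9%) within 300 bp, and the widest was 767 bp apart. The share within 20 bp was 41.7%, 28.6%, 28.9%, and 16.3% in the order of conditions, with intervals that overlapped (15.2 to 72.3% at N-lim and 9.42 to 25.5% at Glu-lim). Beside these, pairs of other TFs on the genes they share ranged widely: 79.9% of 656 Ino2 and Ino4 pairs, a known dimer, lay within 20 bp, 36.2% of 105 Oaf1 and Pip2 pairs, 23.3% of 60 Hap1 and Pip2 pairs, 11.6% of 268 Hap1 and Ino2 pairs, and 10.3% of 272 Oaf1 and Ino2 pairs. Without Pip2 entries past the 3′ end of the gene, the shares of the pairs with Pip2 were 37.6% (Oaf1) and 27.5% (Hap1). The share of Hap1 and Oaf1 was thus near that of Hap1 and Pip2 and above those of either TF with Ino2. It was below that of Oaf1 and Pip2, whose interval (27 to 46.1%) overlapped its own. The tables keep the highest event of a gene, so that a weaker event of either TF nearer to the other would not be seen.

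**Figure D3:**
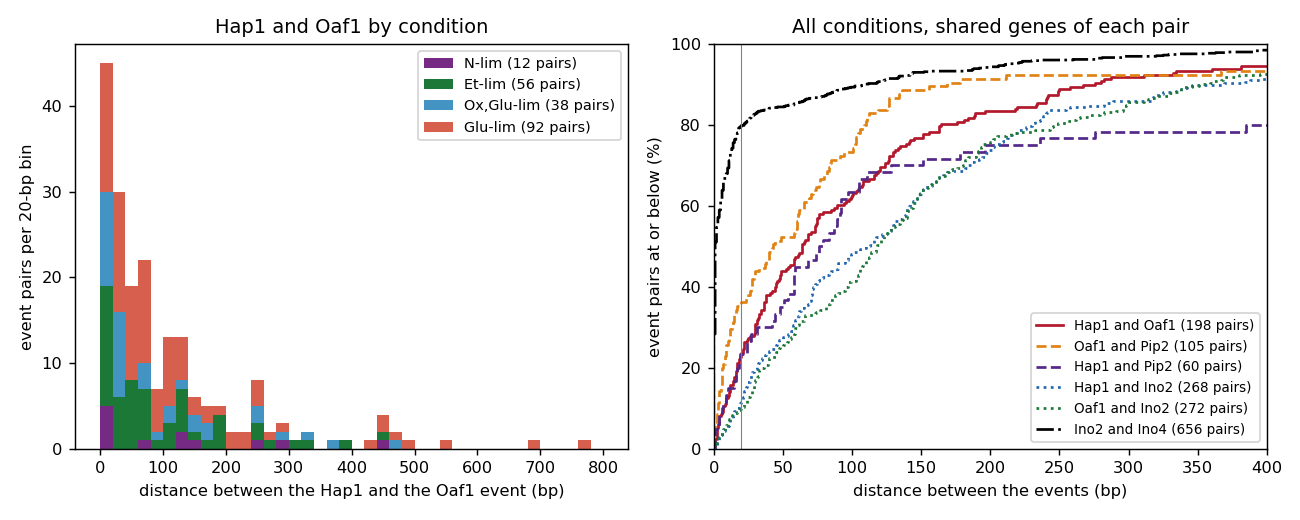
Left, number of event pairs of Hap1 and Oaf1 in 20-bp bins of the distance between them, stacked by condition; right, cumulative share of event pairs against distance for Hap1 and Oaf1 and for 5 other pairs of TFs, each on its shared genes over all conditions, with a grey line at 20 bp. The first bins hold the most pairs, and the Hap1 and Oaf1 curve runs above those with Ino2 and below that of Ino2 and Ino4.

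Among promoters with both TFs in at least 3 conditions, the events lay closest on that of IZH1, a membrane protein of zinc homeostasis, and PKH1, a protein kinase: 1 bp apart at Et-lim, 1 bp at Ox,Glu-lim, and 7 bp at Glu-lim. Hap1 had 3.54, 4.89, and 5.09 there in these conditions and Oaf1 6.38, 4.99, and 5.33. On YGR035C, of unknown function, the distances were 2, 12, and 7 bp, with 4.54, 5.93, and 5.47 for Hap1 and 6.58, 6.18, and 6.92 for Oaf1. On OLE1/SDS23 they were 10 bp at N-lim, 16 bp at Et-lim, 3 bp at Ox,Glu-lim, and 41 bp at Glu-lim. The next by mean distance were TOS8 (27 bp), FTR1/LSM5 (35 bp), PDR16 (35.5 bp), PDR15 (38 bp), ERG1 (40.2 bp), ROX1/YPR063C (46.7 bp), and ERG25 (62.7 bp). PDR16 shows how 1 condition can set such a mean: its events were 127 bp apart at Et-lim and 2, 1, and 12 bp under the other conditions. On ROX1 the events were 6 bp apart at Ox,Glu-lim and 1 bp at Glu-lim, and 133 bp at N-lim. The widest mean distances were those of QCR6 (330 bp), MOT3 (219 bp), MGA1 (213 bp), HOR7 (191 bp), and CIN1/PUT4 (191 bp). On QCR6 Hap1 was found 203 to 220 bp from the gene start throughout, while Oaf1 lay 648 bp from it at N-lim, 332 bp at Et-lim, and 645 bp at Glu-lim.

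**Figure D4:**
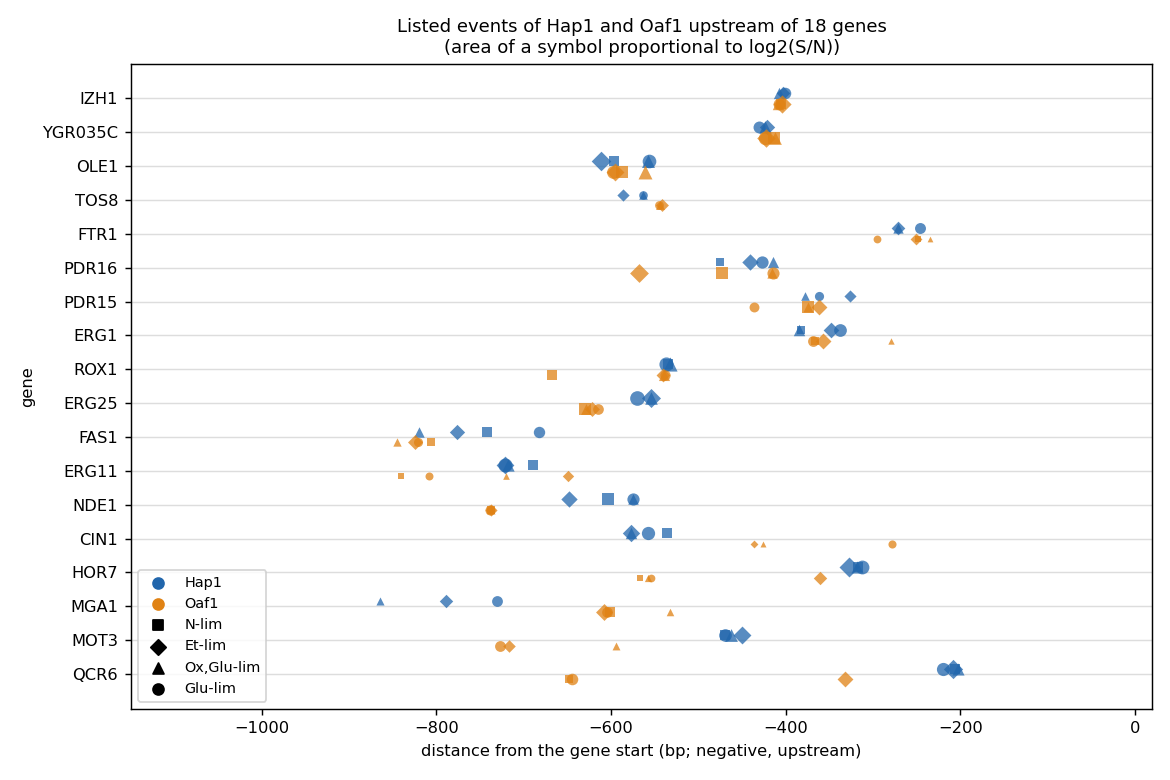
Listed events of Hap1 (blue, upper row of each gene) and Oaf1 (orange, lower row) upstream of 18 genes, ordered by mean distance between the events; the horizontal axis is the distance from the gene start in bp, symbols mark the condition, and their area is proportional to log2(S/N). Events of both TFs overlie each other on IZH1 and YGR035C and stand apart on MGA1, MOT3, and QCR6.

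On promoters with 1 gene of the set, both events could be ordered relative to that gene in 108 pairs. They were within 20 bp in 27, Hap1 was the nearer to the gene in 53, and Oaf1 in 28; a gene can count once for each condition. The excess of Hap1 was seen at Et-lim (16 against 7) and Glu-lim (24 against 12), and, over few pairs, at N-lim (4 against 0), but not at Ox,Glu-lim (9 against 9). Events of both TFs lay farther from the gene on promoters with both: the median distance was 489 bp for Hap1 against 370 bp on genes with Hap1 and not Oaf1, and 538 bp for Oaf1 against 383 bp on genes with Oaf1 and not Hap1. The share within 600 bp of the gene start was 65.7% against 75.1% for Hap1, and 59.8% against 71.2% for Oaf1.

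The highest event did not always keep its place between conditions. For Hap1 on the promoters with both TFs, 121 of 242 comparisons of 2 conditions (50%, interval 43.5 to 56.5%) were within 20 bp, against 65.6% of 186 (58.3 to 72.4%) on promoters with Hap1 and not Oaf1. The median shift was 21 bp on the first and 9.5 bp on the second. For Oaf1 the share within 20 bp was 45.9% of 316 against 46.9% of 147, and 21.5% of the Oaf1 shifts exceeded 100 bp, against 10.3% of those of Hap1. A promoter with a TF in 3 or 4 conditions enters these comparisons more than once, which the intervals do not account for. Hap1 was listed in 3 conditions for 23.9% of the genes with both TFs and 13.3% of those with Hap1 and not Oaf1. The steadiest pair of conditions for Hap1 was Ox,Glu-lim and Glu-lim, with 65.7% of 70 within 20 bp. NDE1 is an example of a fixed Oaf1 event, at 737 to 739 bp from the gene start in all conditions, with Hap1 moving between 575 and 648 bp. On FAS1 Oaf1 lay from 806 to 845 bp, beyond the 20 bp limit, and Hap1 from 682 to 820 bp. Hap1 moved more on these promoters, whereas over the set shifts above 100 bp were more frequent for Oaf1.

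The k-mers, short sequences that the caller found at events, differed between promoters with both TFs and those with Hap1 and not Oaf1. At Ox,Glu-lim, CCGATA (with its reverse complement TATCGG) was given for 22 of 75 Hap1 events (29.3%) on the promoters with both TFs and for 51 of 110 (46.4%) on those with Hap1 and not Oaf1. At Glu-lim it was 21 of 148 (14.2%) against 46 of 140 (32.9%). At Ox,Glu-lim this went with the share of events given any k-mer, 40% against 60%: among those, CCGATA made up 73.3% against 77.3%. At Glu-lim it made up 22.8% against 43% of the events with a k-mer, which were 62.2% against 76.4% of all. The other k-mers of Hap1 at Glu-lim on the promoters with both TFs were CCGAAA (14 events), GGCCGA (9), CCGGAA (8), and AGCCGA (7). At N-lim no Hap1 event had one, and at Et-lim 8 of 75 had, 4 of them CCCCGG. For Oaf1 the leading k-mers were CGGAG at N-lim (18 of 68 events) and Ox,Glu-lim (13 of 69), GCGGA at Et-lim (18 of 112), and GCCGC at Glu-lim (13 of 97), each containing CGG or CCG. On genes with Oaf1 and not Hap1 the same k-mers led at N-lim (15 of 48), Ox,Glu-lim (7 of 50), and Glu-lim (17 of 74), and at Et-lim GCGGA was level with CCCGC (12 of 80 each). K-mers were derived by the caller from the same events and for each library group, so their share can shift with what the caller chose to report.

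A search of the reference sequence also covers events without a k-mer, but it is not independent of the k-mers. Those listed for the chosen genes all lay within 20 bp of their events in the reference, so each event given CCGATA counts here. At Glu-lim these were 21 of the 25 Hap1 events with CCGATA on promoters with both TFs, and at Ox,Glu-lim 22 of 25. With Hap1 and not Oaf1, the k-mer was given for 46 events at Glu-lim and the search found 50. The comparison thus largely repeats that of the k-mers. CCGATA lay within 20 bp (a window of 41 bp, both strands) of 25 of 148 Hap1 events on promoters with both TFs at Glu-lim, 16.9% (11.2 to 23.9%), against 35.7% (27.8 to 44.2%) of 140 on promoters with Hap1 and not Oaf1. At Ox,Glu-lim it was 33.3% of 75 against 49.1% of 110, with intervals that overlapped. At Et-lim the shares were closer, 14.7% of 75 (7.56 to 24.7%) against 18.9% of 53 (9.44 to 32%). At N-lim, over few events, the order turned, with 10% of 20 against 7.69% of 13. The share of all such windows in the 600 bp upstream of protein-coding genes was 0.873%. Near the Oaf1 events of the promoters with both TFs, CCGATA was found in 1.03% at Glu-lim and 4.35% at Ox,Glu-lim. The Oaf1-type half-site CGGNNNTAA (both strands) was found near 19 of 97 Oaf1 events on them at Glu-lim (19.6%, 12.2 to 28.9%), against 13.5% of 74 (6.68 to 23.5%) on those with Oaf1 and not Hap1, and in 1.01% of all windows. The shares were 22.1% against 16.7% at N-lim, 12.5% against 12.5% at Et-lim, and 21.7% against 22% at Ox,Glu-lim. The half-site was also near 10.8% of the Hap1 events with both TFs at Glu-lim, against 7.14% with Hap1 and not Oaf1, and at Ox,Glu-lim near 14.7% against 3.64%. The longer Hap1-type direct repeat was rare, near 2 of 148 Hap1 events at Glu-lim (1.35%) with both TFs and 3.57% with Hap1 and not Oaf1, against 0.0274% of all windows. These sequences were derived in part from these data or match the k-mers, so their presence is a description and not a sign of binding by itself. A plain CGG or CCG triplet was within 20 bp of 95.3% of the Hap1 events and 92.8% of the Oaf1 events of the promoters with both TFs at Glu-lim, and at least 2 were near 63.5% of the Hap1 and 75.3% of the Oaf1 events. For promoters with a single one of the TFs at Glu-lim, a triplet was near 88.6% (Hap1) and 91.9% (Oaf1), and at least 2 near 48.6% (Hap1) and 66.2% (Oaf1). For all windows the shares were 33.5% with a triplet and 10.3% with at least 2. For Oaf1 at Et-lim the shares with at least 2 were level, 78.6% of 112 events with both TFs against 78.8% of 80. In the other conditions, and for Hap1 in all, the share was higher with both TFs.

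The share of Hap1 events with CCGATA and the listing of Pip2 differed with the distance between the events. Of the 47 pairs within 20 bp, 10.6% had CCGATA near the Hap1 event, against 11.7% of those from 21 to 100 bp and 25.7% of the 74 pairs over 100 bp apart. The Oaf1-type half-site was near the Oaf1 event in 21.3%, 15.6%, and 17.6% of the pairs in the same order, with no steady trend. In close pairs the windows around both events largely overlap. The median log2(S/N) of Oaf1 was 3.72 in pairs within 20 bp, 3.18 in the 77 pairs from 21 to 100 bp, and 2.45 in those farther apart, and that of Hap1 was 3.54, 3.14, and 3.86. Pip2 was listed on the same gene and condition for 38.3% of the pairs within 20 bp, 26% of those from 21 to 100 bp (24.7% without Pip2 entries past the 3′ end of the gene), and 5.41% of those farther apart. The split by distance was made with the values known.

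The promoters with both TFs were also long and rich in the triplets. The space from the gene start to the next protein-coding gene upstream had a median of 754 bp over 211 genes (666 to 868 bp), against 698 bp (623 to 819 bp) for Hap1 and not Oaf1, 640 bp (556 to 721 bp) for Oaf1 and not Hap1, and 448 bp for all 5993 protein-coding genes compared. It exceeded 600 bp for 61.1% of the genes with both TFs, 60.7% with Hap1 and not Oaf1, 54.1% with Oaf1 and not Hap1, and 34.9% of all genes. The upstream neighbour was divergent, so that 1 promoter serves both, for 61.1% of the genes with both TFs. The share was 54.3% for Hap1 and not Oaf1, 62.9% for Oaf1 and not Hap1, and 52.1% of all. The first 600 bp upstream held a median of 12 CGG or CCG triplets, against 8.5, 10, and 7 in the same order, with a GC content of 40.2% against 38.3%, 39.3%, and 37%. CCGATA was found in these 600 bp for 27.5% of the genes with both TFs, 37.6% with Hap1 and not Oaf1, 11.2% with Oaf1 and not Hap1, and 13.2% of all genes, and CGGNNNTAA for 30.8%, 21.4%, 26.3%, and 16.4%. A longer upstream space gives more room for any event within the authors' 1,200 bp, and its part in the overlap of the TFs was not tested.

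Most genes with both TFs were also listed for Ino2 or Ino4, which the choice of genes did not use. Ino2 was listed in at least 1 condition for 176 of the 226 genes, 77.9% (71.9 to 83.1%), against 35.9% of the genes with Hap1 and not Oaf1, 38.9% of those with Oaf1 and not Hap1, and 11.7% of all genes. Ino4 was listed for 150, 66.4% (59.8 to 72.5%), against 21.8%, 28.8%, and 9.46% in the same order. Pip2 was listed for 56, 24.8% (19.3 to 30.9%), against 5.65%, 19.9%, and 3.3%. For Pip2 the difference from genes with Oaf1 and not Hap1 lay within overlapping intervals, and it turned under 3 alternatives: at a threshold of 1.5 on log2(S/N) it was 23.7% against 25.4%, at a threshold of 2 it was 23.8% against 26.3%, and with events up to 600 bp it was 18.7% against 22%. The Pip2 table also lists events past the 3′ end of a gene, 6 of its 87 entries for the 226 genes and 122 of 332 for all genes; without them Pip2 was listed upstream of 23.5% of the genes with both TFs, against 2.82%, 17.7%, and 2.09%. For Ino2 and Ino4 the order held under each alternative tried: with events up to 600 bp only, Ino2 had 58.2% against 28.1%, 33.9%, and 8.41%, and Ino4 47% against 16.1%, 24.4%, and 6.6%. Where Ino2 was listed, its highest log2(S/N) had a median of 3.37 on the genes with both TFs, against 2.28 on each of the sets with a single one and 1.99 on genes with neither. For Ino4 it was 3.15 on the genes with both TFs (2.82 to 3.67), against 3.63 with Hap1 and not Oaf1 (2.60 to 4.20), 2.48 with Oaf1 and not Hap1, and 2.29 with neither.

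**Figure D5:**
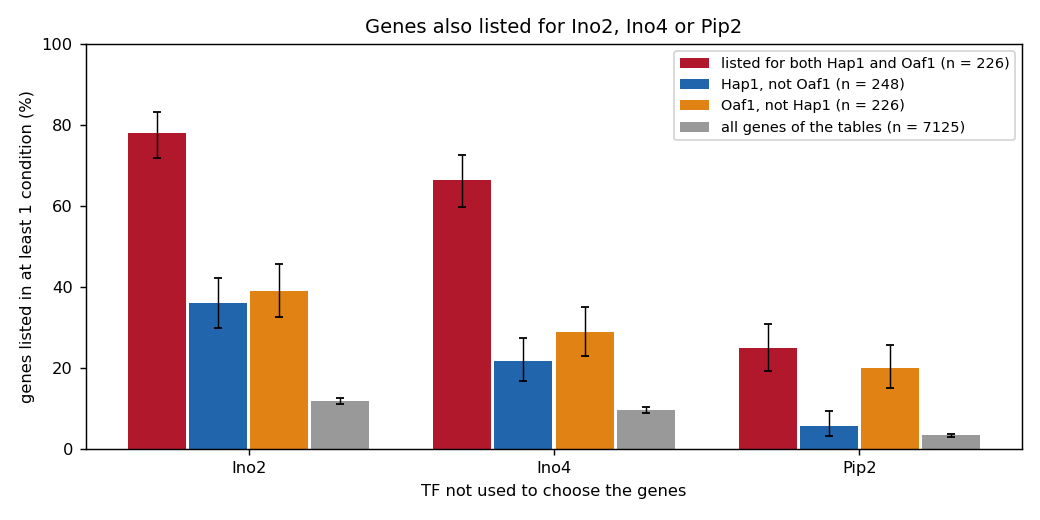
Share of genes with a listed event of Ino2, Ino4, or Pip2 in at least 1 condition, for genes listed for both Hap1 and Oaf1, for Hap1 and not Oaf1, for Oaf1 and not Hap1, and for all genes of the tables; bars start at 0 and error bars are exact binomial 95% intervals over genes. For Ino2 and Ino4 the genes with both TFs have the highest bars, 77.9% and 66.4%.

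Events of Ino2 and Ino4 were mostly not at the place of the Hap1 and Oaf1 events. On the genes with both TFs, Ino2 lay within 20 bp of Hap1 in 9.79% of 194 event pairs and of Oaf1 in 8.87% of 203, with medians of 124 and 120 bp, and Ino4 in 12.6% of 159 and 10.8% of 139. Pip2 lay within 20 bp of Oaf1 in 38.7% of 62 pairs and of Hap1 in 27.5% of 51; without entries past the 3′ end these were 39.3% of 61 and 29.8% of 47. With Pip2 entries past the 3′ end included, Ino2, Ino4, and Pip2 were all listed for 15.5% of the genes with both TFs. The share was 1.61% with Hap1 and not Oaf1, 3.98% with Oaf1 and not Hap1, and 0.716% of all genes. All 5 TFs were thus listed for 35 of the 226 genes. For 3 of these, FAA1, TIM23, and MET13, the Pip2 event lay past the 3′ end of the gene, which leaves 32 genes on 24 promoters, among them OLE1/SDS23, ERG11, FAS1, PDR15, PDR16, PUT1, IPT1/SNF11, RGI2/VHR1, ROX1/YPR063C, NDE1, and the regulators ADR1, MSN2, and GIS1. FAS1 had the higher values for Ino2 (6.73, 7.61, 5.91, and 7.58 from N-lim to Glu-lim) and Ino4 (8.65, 9.50, 7.73, and 8.42) than for Hap1 or Oaf1 in every condition. YGR035C, with close and high Hap1 and Oaf1 events, had Pip2 in all conditions (3.70, 4.80, 5.59, and 5.31), no Ino2, and Ino4 at N-lim alone (1.55). IZH1 had Pip2 at Et-lim (4.09) and Glu-lim (3.43) and neither Ino2 nor Ino4.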

How the data were processed

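ChIP-exo data of Hap1, Oaf1, Ino2, Ino4, and Pip2 under 4 conditions were used as deposited by the authors, 1 table for each TF, with 20 columns used from each, 100 in all, and 0 columns of per-sample values left out. The log2 values are log2(S/N) made by the authors, who aligned reads with Bowtie2 to R64-2-1, removed low-quality reads with SAMtools, trimmed 70 bases from the 3′ end, called events with GEM over the replicates, divided signal by the noise of each replicate, kept values above 1, assigned events to genes within 1,200 bp with BEDTools, and listed the highest event of a gene. The event position, its k-mer, and its distance from the gene were taken as deposited. Tool versions are not given in the sources used here. Pooling leaves 1 value for each TF, gene, and condition, so precision is unknown.

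Tables were joined by gene name with Python 3.11.15, SciPy 1.17.1, and matplotlib 3.10.9, and 6209 of 7125 names were matched to the RefSeq annotation of R64. Of the k-mers listed for events of the chosen genes, 130 of 130 (Hap1) and 242 of 242 (Oaf1) were found within 20 bp of the listed position in R64, so the coordinates were used as they stand. Events within 20 bp were called the same place. Background windows of 41 bp were taken every 20 bp over the 600 bp upstream of protein-coding genes, which for short upstream spaces reach into the neighbouring gene. The counting steps were tested on simulated data. Genes were named by a rule: both TFs in all 4 conditions, the 10 promoters with the highest smaller mean, the 10 closest and 5 widest promoters among those with both TFs in at least 3 conditions, the 5 largest differences each way, up to 4 genes of each of 15 pathway lists, and the 3 values nearest the threshold; ARE2, AAC1, HAP1, SNQ2, ADR1, MSN2, GIS1, and others listed by name were chosen after their values were seen. The genes, lists, and rule were chosen with earlier results of these data known. Alternatives were thresholds of 1.5 and 2, events up to 600 bp, the nearest gene only, protein-coding genes only, other distance limits and windows, and, added after seeing the data, each event or promoter counted once and Pip2 entries past the 3′ end of the gene left out, which for the Pip2 share alone was planned.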

Additional observations from a re-analysis of the deposited data

How the results depend on the processing

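No paired analysis was possible because the replicates are pooled in the tables. Of 114 alternative values, 82 stayed within 1.5 times a count or within the interval of the main value. With events up to 600 bp only, 134 genes were listed for both TFs and 102 in the same condition, the median distance was 42 bp with 31.7% of pairs within 20 bp, and 58.2%, 47%, and 18.7% of the genes had Ino2, Ino4, and Pip2. With each event given to the closest gene alone there were 113 genes with both TFs in the same condition, and 65.6%, 55.6%, and 18.5% for Ino2, Ino4, and Pip2. A threshold of 1.5 moved the median of Hap1 at Glu-lim to 3.22 and the Ino4 share to 59.7%; a threshold of 2 gave medians of 3.86 (Hap1, Glu-lim), 3.49 (Oaf1, N-lim), 3.34 (Oaf1, Et-lim), and 3.37 (Oaf1, Ox,Glu-lim) and an Ino4 share of 48.3%; a higher threshold removes low values by construction. Distance limits of 10 and 50 bp gave 13.1% and 43.9% of Hap1 and Oaf1 pairs at the same place, and a limit of 50 bp gave 75.6% (Hap1) and 57.3% (Oaf1) for the same place in 2 conditions. A motif window of 10 bp gave 0% for CCGATA near Hap1 at N-lim, and for CGGNNNTAA near Oaf1 2.68%, 10.1%, and 6.19% from Et-lim on; a window of 50 bp gave 45% for CCGATA near Hap1 at N-lim, and for CGGNNNTAA near Oaf1 39.7%, 23.2%, and 39.1% from N-lim to Ox,Glu-lim. Among Hap1 events with a k-mer, CCGATA made up 22.8% at Glu-lim, against 43% with Hap1 and not Oaf1, and 73.3% against 77.3% at Ox,Glu-lim. The unknown depth and the pooled replicates limit all values.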

Other observations

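For 46 of the 226 genes (20.4%) Hap1 and Oaf1 were never listed in the same condition. In 35 of these Hap1 was listed at Glu-lim alone, and in 21 Oaf1 was listed at Et-lim alone. Of all 226 genes, Hap1 was listed at Glu-lim for 213 and Oaf1 at Et-lim for 165. Hap1 was listed in only 1 condition for 40.7% of the 226, and Oaf1 for 37.2%. A gene with few listed conditions has less room for a common one, and whether these counts exceed what the list sizes give was not tested. The most frequent pattern, Hap1 at Glu-lim and Oaf1 at Et-lim, had 16 genes, among them ADY2, an acetate transporter (Hap1 1.78, Oaf1 3.03), HXT5, a hexose transporter (Hap1 2.02, Oaf1 2.09), and TSL1 of trehalose synthesis. A further 8 had Hap1 at Glu-lim and Oaf1 at Ox,Glu-lim, among them TIP1, a cell wall protein (Hap1 2.04, Oaf1 2.80), and YPC1, a ceramidase (Hap1 3.02, Oaf1 2.28). The multidrug transporter gene PDR5 and YAP1, a regulator of the oxidative stress response, had Oaf1 at Et-lim and Hap1 under both glucose-limited conditions; at YAP1 the values were 4.37 and 5.17 for Hap1 and 3.38 for Oaf1. DDR2, a stress gene, had Hap1 at Glu-lim (2.43), 514 bp from the gene start, and Oaf1 at N-lim (1.22) and Et-lim (1.70), 513 and 514 bp from it, so the same place was used in different conditions. A condition without an event means that none was above the threshold there.

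Of the 226 genes, 32 (14.2%) had none of Ino2, Ino4, and Pip2. The share was 58.9% with Hap1 and not Oaf1, 46% with Oaf1 and not Hap1, and 84.7% of all genes. The 32 genes include AAC1, a mitochondrial ADP/ATP carrier, FET3, a multicopper oxidase of iron uptake, ADH1, ARE2, ATP1, OAC1, PUT2, SCS7, and the ribosomal protein gene RPL25. The differences between these shares were not tested.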
